A study of Mus musculus with 9 samples.

Results

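A set of 45 genes of mitosis and DNA replication was followed in whole mouse lung, in animals exposed to low oxygen with or without parathyroid hormone (PTH) and in animals kept at normal oxygen. The genes were picked by symbol, as known parts of the cell division machinery, from the 53342 genes of the deposited RNA-seq table, and all 45 were among the 19640 genes with enough counts to be tested. They comprise a mitosis set of 27 genes and a replication set of 18 that act in DNA replication or at the entry to S phase. The mitosis set includes the transcription factor Foxm1 and the S phase and G2 cyclin Ccna2.

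A dividing cell copies its DNA in S phase and separates the copies in mitosis. Origins of replication are licensed by Cdc6 and Cdt1, which load the Mcm helicase, and E2f transcription factors switch on these genes before S phase. Genes of mitosis are switched on later, with Foxm1 and the MuvB complex acting at promoters that often carry a CHR element and CCAAT boxes. Few cells divide in the resting adult lung, and in rodents kept in low oxygen the walls of small pulmonary arteries thicken.

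There were 3 groups of 3 libraries, all from lung of C57BL/6 mice. Hypoxia with PTH comprised replicates 3, 4 and 5, kept at 10% oxygen and injected with PTH residues 1 to 34 at a daily dose of 40 µg/kg. Hypoxia comprised replicates 1, 2 and 5, kept at 10% oxygen without PTH, and normoxia comprised replicates 2, 3 and 5. The stated chamber time was 3 weeks. The titles of the hypoxia and normoxia libraries give the genotype as WT and those of the PTH libraries give none, the labels do not give ages, and a sham group given saline is mentioned without its libraries. The labels do not state that each library came from a separate animal, and the p-values therefore reflect the spread among libraries, which may be technical.

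Type 2 alveolar markers such as Sftpc summed to 19500 to 26800 CPM in every library. Library totals ran from 40234030 to 58391086 counts. Expression is given as CPM, the counts of a gene scaled to a common library size after TMM. Differences are log2 fold changes with their standard error (SE) from edgeR's quasi-likelihood test, and a gene was called changed at a Benjamini-Hochberg adjusted p under 0.05 over all 19640 genes. Counts of a member in a library ranged from 13 for Kif2c to 3754 for Pcna. Hypoxia with PTH and hypoxia were each set against the same normoxia libraries, and hypoxia with PTH was set against the same hypoxia libraries, so the 3 comparisons share samples.

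The promoters of the mitosis and replication members held the same motifs in different shares, and 2 of each set are printed to show them. RefSeq windows of 300 bases (build GRCm38.p6), from 250 bases before to 50 after a gene's start, matched 37 of the 45 members. Aurkb, Ccna2, Ccne2, Foxm1, Gins2, Kif20a, Mcm4 and Tpx2 had no entry. The windows lie on the minus strand at chr4:118437294-118437593 (Cdc20), chr9:70421505-70421804 (Ccnb2), chr5:138171834-138172133 (Mcm7) and chr1:128359656-128359955 (Mcm6). Capitals mark matches to 3 kinds of motif, searched on both strands, and neighbouring matches can overlap. CHR elements were the letters TTTGAA and also the related form TTCGAA, while the CCAAT box was searched by those letters. E2F-like sites were searched as TTCCCGC first, as TTGGCGC in a second form and as TTCGCGC in the remaining form.
Cdc20: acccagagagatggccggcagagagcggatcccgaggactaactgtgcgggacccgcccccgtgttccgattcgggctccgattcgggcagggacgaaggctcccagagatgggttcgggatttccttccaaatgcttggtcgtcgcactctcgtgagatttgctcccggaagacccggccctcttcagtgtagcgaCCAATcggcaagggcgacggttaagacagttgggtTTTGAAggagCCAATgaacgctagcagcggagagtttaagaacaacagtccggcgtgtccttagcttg
Ccnb2: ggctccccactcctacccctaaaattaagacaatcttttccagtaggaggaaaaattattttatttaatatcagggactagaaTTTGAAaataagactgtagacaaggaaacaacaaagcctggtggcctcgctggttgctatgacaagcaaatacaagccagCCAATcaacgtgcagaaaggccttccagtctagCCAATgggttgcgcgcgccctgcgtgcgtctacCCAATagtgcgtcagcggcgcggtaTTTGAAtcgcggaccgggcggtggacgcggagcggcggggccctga
Mcm7: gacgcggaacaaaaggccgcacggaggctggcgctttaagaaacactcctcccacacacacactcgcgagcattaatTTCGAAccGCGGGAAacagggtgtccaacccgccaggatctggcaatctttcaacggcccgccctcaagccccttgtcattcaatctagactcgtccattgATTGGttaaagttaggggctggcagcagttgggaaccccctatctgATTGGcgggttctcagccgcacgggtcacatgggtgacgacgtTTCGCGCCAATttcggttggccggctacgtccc
Mcm6: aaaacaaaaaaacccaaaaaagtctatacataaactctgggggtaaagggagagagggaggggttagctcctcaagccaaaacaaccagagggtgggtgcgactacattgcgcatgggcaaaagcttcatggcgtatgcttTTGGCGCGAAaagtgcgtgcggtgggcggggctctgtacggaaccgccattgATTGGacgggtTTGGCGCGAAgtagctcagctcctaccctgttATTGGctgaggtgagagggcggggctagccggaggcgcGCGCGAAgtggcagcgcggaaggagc

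The mitosis windows printed were those with the highest mean TPM among members holding both CHR and CCAAT matches. The replication windows were chosen likewise among members holding E2F-like and CCAAT matches. That the printed windows hold these matches is therefore no result. In the Cdc20 window a CHR match stood at position -18 from the start with CCAAT matches at -53 and -8, and in the Ccnb2 window a CHR match stood at position 4 with CCAAT matches at -21, -54 and -87. Of the replication pair, Mcm6 held no CHR match and 5 E2F-like matches, while Mcm7 held a CHR match at -173, CCAAT matches at -72, -26 and 23 and 3 E2F-like matches. A CHR match was present in 18 of 22 mitosis promoters (81.8%), in 3 of 15 replication promoters (20%) and in 19.1% of all 32544 promoter windows. CCAAT was found in 81.8% of mitosis promoters, 60% of replication promoters and 37.4% of all. E2F-like matches were found in 18.2% of mitosis promoters, 46.7% of replication promoters and 8.12% of all. CHR and CCAAT together were held by 16 of 22 mitosis promoters (72.7%), 3 of 15 replication promoters (20%) and 7.5% of all. These matches describe letters in a window and are not evidence of binding.

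The replication genes were the more abundant set per length. By the mean of the deposited TPM values, which have a floor of 1 TPM, Pcna was highest at 69.7 TPM, followed by Mcm4 at 18.8 TPM, Mcm7 at 18.1 TPM and Mcm6 at 15.6 TPM. The highest mitosis gene was Cdc20 at 7.95 TPM, and Kif2c, Cenpe and Cenpf were at the floor in all 9 libraries. Across the 9 libraries the highest CPM of a replication gene was a median of 1.69 times its lowest (range 1.26 to 3.32), and for a mitosis gene a median of 3.83 times (range 1.67 to 16.2).

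**Figure D1:**
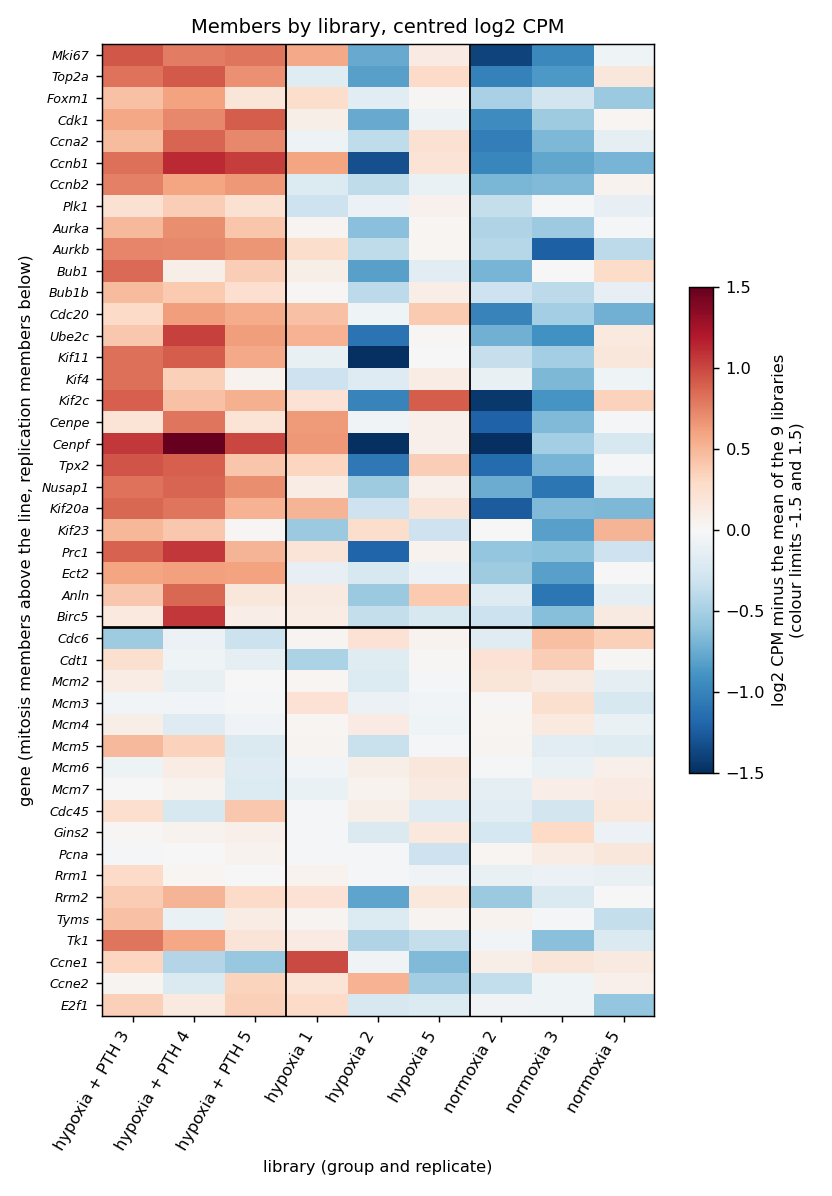
Heat map of the 45 members (rows; 27 mitosis genes above the line, 18 replication genes below) in the 9 libraries (columns), as log2 CPM minus the gene's mean over the 9 libraries, with colours limited to -1.5 and 1.5. The mitosis genes are mostly red in the 3 hypoxia with PTH libraries and mostly blue in normoxia 2, normoxia 3 and hypoxia 2, while most replication genes stay near white.

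Mitosis genes stood higher in lungs from hypoxia with PTH than in normoxic lungs, with a median log2 fold change of 1.15 over the 27 genes, and all 27 lay above 0. Replication genes had a median of 0.01, with 9 of 18 above 0. Over all genes tested the median was -0.01, and 47.4% lay above 0. The test called 5 of 45 members higher, against 1.27% of all genes, and 0 members lower, against 0.468% of all genes (1.74% in either direction). The 5 were Cdc20, Kif20a, Nusap1, Ccna2 and Aurkb, all mitosis genes. In whole lung, more dividing cells and more RNA per cell cannot be told apart.

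Groups did not overlap, with all 3 hypoxia with PTH libraries above all 3 normoxia libraries, for 24 of 27 mitosis genes and 4 of 18 replication genes, where 11.4% of all genes tested did the same; 0 members did the reverse, against 11.4% again. By unadjusted p under 0.05, 24 mitosis genes and 4 replication genes were higher and Cdc6 alone was lower, against 8.57% of all genes higher and 8.63% lower. The calls depended on single libraries. No member was called without normoxia 2, normoxia 3, hypoxia with PTH 4 or hypoxia with PTH 5, in fits that called 81, 84, 186 and 83 genes in all. Of the 5, only Cdc20 and Kif20a passed without hypoxia with PTH 3 (321 genes called in all), and Cdc20, Kif20a and Nusap1 passed without hypoxia 1 (249 genes). Without normoxia 5, 8 members were called (290 genes), 4 of them among the 5, with Aurkb lost and Mki67, Top2a, Ccnb2 and Ect2 added. All 27 mitosis genes lay above 0 in each of those fits. DESeq2 called 19 members higher, 18 of them mitosis genes and the remaining one Tk1, against 7.67% of all genes to which it gave an adjusted p (1417 genes, where edgeR called 341).

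Cdc20 activates the anaphase-promoting complex, which ends mitosis, and had the smallest p of the members. It lies on chromosome 4 at 118432901-118437352 (mm10, minus strand). Its level was 6.03, 7.62 and 7.26 CPM in hypoxia with PTH, 6.73, 4.72 and 6.48 CPM in hypoxia and 2.44, 3.45 and 2.99 CPM in normoxia. All 6 hypoxic libraries were above all 3 normoxic ones, and the hypoxic groups overlapped. Its log2 fold change against normoxia was 1.23 (SE 0.20, adjusted p = 0.0196) for hypoxia with PTH and 1.01 (SE 0.20, adjusted p = 0.0615) for hypoxia. It was also the only member past the threshold in the test over the 3 groups (adjusted p = 0.0430), which called 194 genes (0.988%).

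Kif20a is a kinesin of the central spindle that works in cytokinesis. It stood at 4.11, 3.95 and 3.22 CPM in hypoxia with PTH, 3.22, 1.79 and 2.56 CPM in hypoxia and 0.920, 1.40 and 1.39 CPM in normoxia. Again all hypoxic libraries exceeded the normoxic ones. The log2 fold change was 1.60 (SE 0.27, adjusted p = 0.0237) for hypoxia with PTH and 1.03 (SE 0.27, adjusted p = 0.138) for hypoxia, both against normoxia. Exons of 13 of the 45 members overlap those of a gene on the opposite strand, and since the use of strand in counting is not given in the sources used here, reads of both cannot be told apart there. Replication genes carry this limit too: Gins2 shares 2758 exon bases with Gse1, Ccne2 shares 609 with Ints8 and Cdc45 shares 209 with Ufd1. Among the called genes Kif20a shares 1271 exon bases with Cdc23, Ccna2 shares 510 with Exosc9, Nusap1 shares 172 with Oip5 and Cdc20 shares 53 with Elovl1. Mean counts were 114 for Kif20a and 2320 for Cdc23, and 245 for Cdc20 and 8430 for Elovl1. They were 216 for Ccna2 and 931 for Exosc9, and 113 for Nusap1 and 30.2 for Oip5. For hypoxia with PTH against normoxia the log2 fold changes of these neighbours were 0.03 for Cdc23 (SE 0.076, adjusted p = 0.877), 0.07 for Exosc9 (SE 0.11, adjusted p = 0.812), 0.29 for Oip5 (SE 0.40, adjusted p = 0.783) and 0.25 for Elovl1 (SE 0.15, adjusted p = 0.443).

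Nusap1 (chromosome 2, 119618298-119651244, plus strand), which binds spindle microtubules, measured 3.95, 4.13 and 3.64 CPM in hypoxia with PTH, 2.42, 1.53 and 2.36 CPM in hypoxia and 1.31, 1.04 and 1.93 CPM in normoxia. The hypoxia with PTH libraries were above all others, and hypoxia and normoxia overlapped. Against normoxia the log2 fold change was 1.46 (SE 0.28, adjusted p = 0.0322) for hypoxia with PTH and 0.56 (SE 0.27, adjusted p = 0.473) for hypoxia.

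Ccna2 (chromosome 3, 36564865-36572150, minus strand) encodes a cyclin that partners kinases in S phase and G2, and it measured 6.03, 7.95 and 7.15 CPM in hypoxia with PTH, 4.11, 3.32 and 5.09 CPM in hypoxia and 2.08, 2.69 and 3.95 CPM in normoxia. Aurkb (chromosome 11, 69045647-69051664, plus strand), the kinase of the chromosomal passenger complex, measured 2.41, 2.38 and 2.30 CPM in hypoxia with PTH, 1.73, 1.09 and 1.46 CPM in hypoxia and 1.05, 0.587 and 1.08 CPM in normoxia. For both genes every hypoxia with PTH library was above every other library. Their log2 fold changes for hypoxia with PTH against normoxia were 1.28 for Ccna2 (SE 0.26, adjusted p = 0.0402) and 1.38 for Aurkb (SE 0.29, adjusted p = 0.0479).

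**Figure D2:**
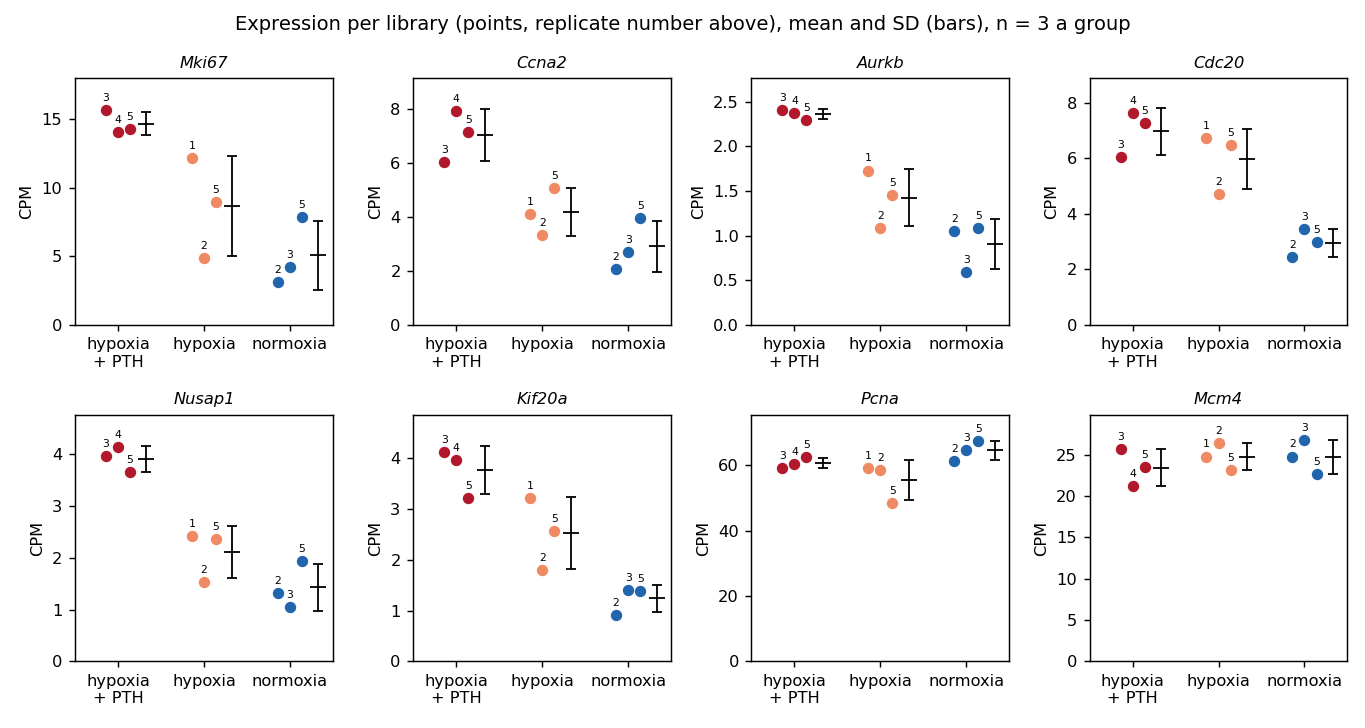
CPM per library for 8 members (points, with replicate number), with the group mean and SD beside them (n = 3 a group), axes starting at 0. Mki67, Ccna2, Aurkb and Nusap1 are highest in the 3 hypoxia with PTH libraries, Cdc20 and Kif20a are above normoxia in all 6 hypoxic libraries, and Mcm4 overlaps across groups, as does Pcna between hypoxia with PTH and normoxia.

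The proliferation marker Mki67, which coats mitotic chromosomes, was at 15.7, 14.1 and 14.3 CPM in hypoxia with PTH, 12.2, 4.85 and 8.95 CPM in hypoxia and 3.12, 4.18 and 7.89 CPM in normoxia. The DNA topoisomerase Top2a was at 13.4, 14.4 and 12.3 CPM in hypoxia with PTH, 6.68, 4.28 and 9.26 CPM in hypoxia and 3.75, 4.18 and 8.52 CPM in normoxia. Hypoxia with PTH was above the other 2 groups for both, and hypoxia and normoxia overlapped. Neither gene was called. The log2 fold change for hypoxia with PTH against normoxia was 1.54 (SE 0.38, adjusted p = 0.0784) for Mki67 and 1.29 (SE 0.34, adjusted p = 0.0970) for Top2a.

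Among the other mitotic cyclins and kinases, Ccnb2 measured 3.95, 3.51 and 3.67 CPM in hypoxia with PTH, 2.00, 1.77 and 2.15 CPM in hypoxia and 1.43, 1.45 and 2.41 CPM in normoxia, and its log2 fold change against normoxia was 1.08 (SE 0.24, adjusted p = 0.0581). All 7 genes of this role (Cdk1, Ccna2, Ccnb1, Ccnb2, Plk1, Aurka and Aurkb) had the 3 hypoxia with PTH libraries above all 6 others, as did 16 of the 27 mitosis genes, 2 of the 18 replication genes and 2.62% of all genes tested. Cdk1 drives entry into mitosis with its cyclin B partners, and Plk1 and Aurka act at the spindle poles. The median over the 7 was 1.19, and the lowest was Plk1, with a log2 fold change of 0.44 (SE 0.18, adjusted p = 0.253).

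In the spindle and kinetochore role Tpx2, which activates Aurora A, measured 5.41, 5.27 and 3.76 CPM in hypoxia with PTH, 3.51, 1.31 and 3.63 CPM in hypoxia and 1.24, 1.71 and 2.75 CPM in normoxia. Its log2 fold change was 1.34 (SE 0.41, adjusted p = 0.132) for hypoxia with PTH against normoxia. The motors Kif11 and Kif4, the depolymerase Kif2c and the kinetochore proteins Cenpe and Cenpf all lay above 0, from 0.73 for Kif4 to 2.09 for Cenpf, and each had an adjusted p of at least 0.118. Cenpf had the widest spread, from 0.300 to 4.85 CPM.

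Anln, which anchors the contractile ring, measured 8.18, 11.2 and 6.93 CPM in hypoxia with PTH, 6.73, 4.17 and 8.09 CPM in hypoxia and 5.37, 2.88 and 5.61 CPM in normoxia. Hypoxia with PTH and normoxia did not overlap, and the log2 fold change was 0.93 (SE 0.32, adjusted p = 0.174). The central spindle genes Prc1 and Ect2 had log2 fold changes of 1.34 (adjusted p = 0.0731) and 1.03 (adjusted p = 0.0536). Kif23 (0.33) and Birc5 (0.76) overlapped between the 2 groups. Among checkpoint genes Bub1 also overlapped (0.57), and Bub1b did not (0.66, adjusted p = 0.0885).

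Foxm1, the transcription factor of the G2 genes, measured 5.81, 6.49 and 4.85 CPM in hypoxia with PTH, 5.12, 3.80 and 4.31 CPM in hypoxia and 3.04, 3.52 and 2.88 CPM in normoxia. All 6 hypoxic libraries were above normoxia. The log2 fold change was 0.86 (SE 0.19, adjusted p = 0.0518) for hypoxia with PTH and 0.48 (SE 0.18, adjusted p = 0.320) for hypoxia, each against normoxia. E2f1, which drives genes of S phase, measured 10.0, 8.62 and 10.0 CPM in hypoxia with PTH, 9.53, 6.58 and 6.76 CPM in hypoxia and 7.51, 7.42 and 5.20 CPM in normoxia. Its log2 fold change was 0.51 (SE 0.19, adjusted p = 0.217) between hypoxia with PTH and normoxia.

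The helicase and licensing genes showed no call. Mcm4, part of the Mcm helicase, measured 25.7, 21.2 and 23.5 CPM in hypoxia with PTH, 24.8, 26.4 and 23.2 CPM in hypoxia and 24.8, 26.8 and 22.7 CPM in normoxia, and the groups overlapped. For Mcm2, Mcm3, Mcm4, Mcm5, Mcm6 and Mcm7 the log2 fold change for hypoxia with PTH against normoxia lay between -0.08 and 0.34, and the bounds of their 95% intervals lay between -0.38 and 0.81. Cdc6, a loader of the helicase, measured 1.18, 1.62 and 1.37 CPM in hypoxia with PTH, 1.78, 2.01 and 1.79 CPM in hypoxia and 1.52, 2.38 and 2.23 CPM in normoxia. Its log2 fold change was -0.56 (SE 0.24, adjusted p = 0.277), the lowest of the 45 members. Cdt1, Cdc45 and Gins2 lay between -0.19 and 0.25.

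Pcna, the sliding clamp, measured 59.3, 60.5 and 62.5 CPM in hypoxia with PTH, 59.3, 58.7 and 48.4 CPM in hypoxia and 61.5, 64.8 and 67.5 CPM in normoxia. Its log2 fold change was -0.09 (SE 0.087, adjusted p = 0.673) for hypoxia with PTH against normoxia. Tk1, which salvages thymidine, measured 4.18, 3.58 and 2.72 CPM in hypoxia with PTH, 2.60, 1.73 and 1.84 CPM in hypoxia and 2.31, 1.52 and 2.04 CPM in normoxia. Its hypoxia with PTH libraries were above all others, and the log2 fold change against normoxia was 0.84 (SE 0.26, adjusted p = 0.138). Rrm2, the limiting subunit of ribonucleotide reductase, followed at 0.64 (adjusted p = 0.261), while its partner Rrm1 (0.22), the thymidylate synthase Tyms (0.27) and the cyclin E genes Ccne2 (0.18) and Ccne1 (-0.33) were closer to 0.

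**Figure D3:**
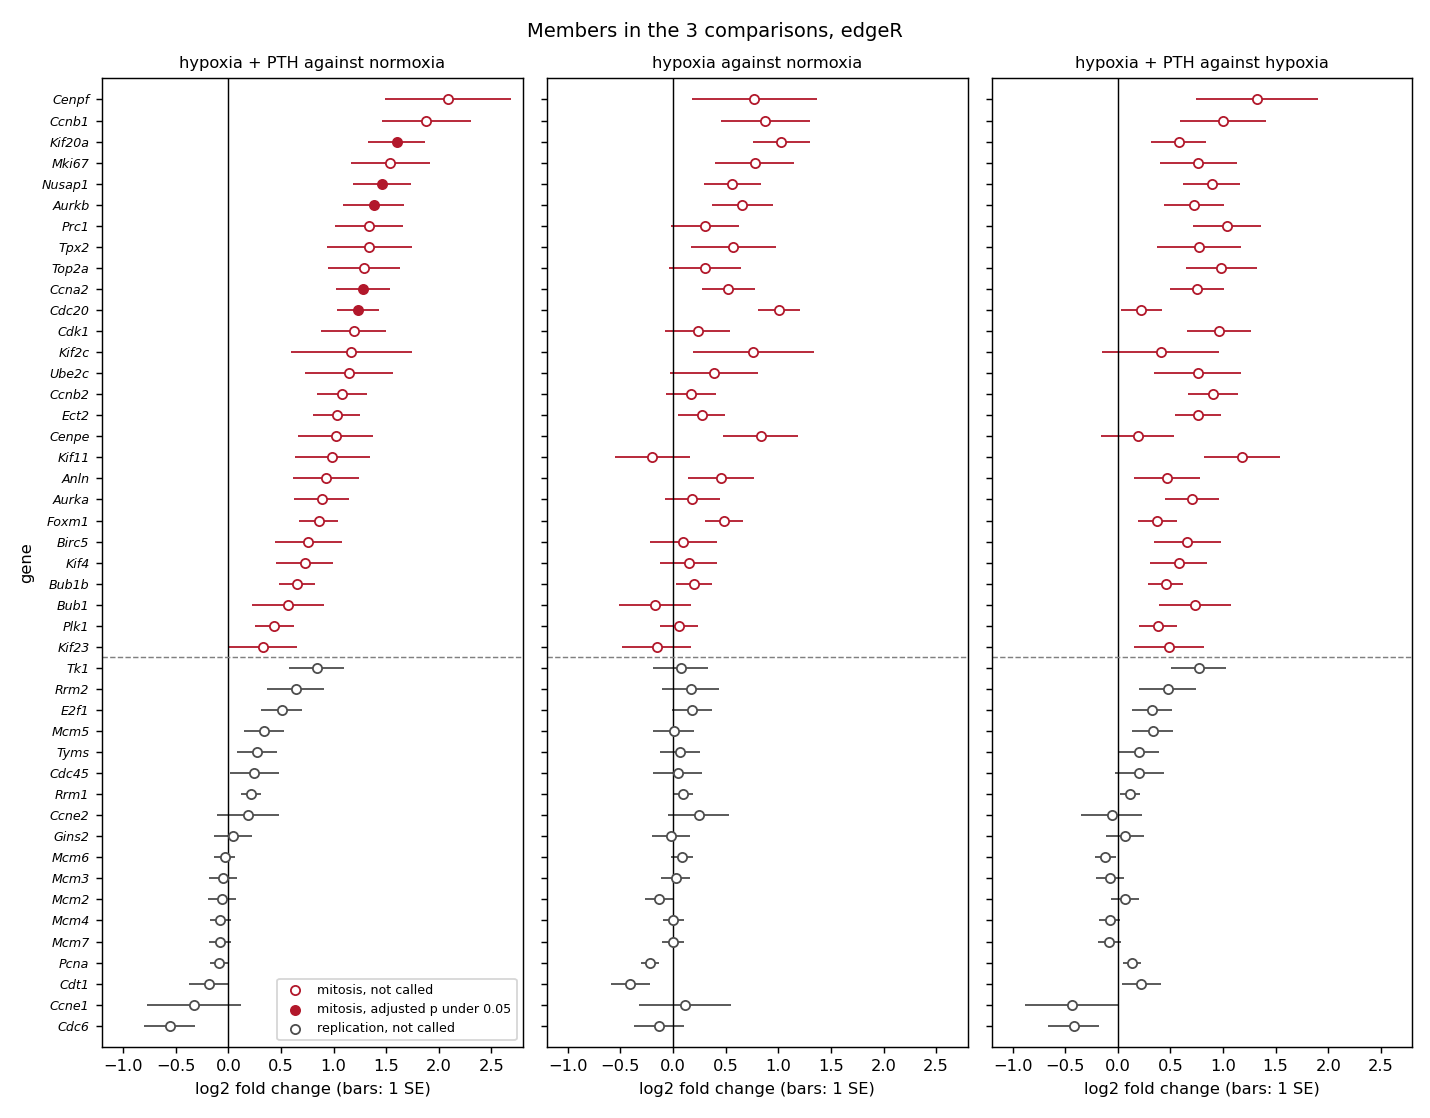
Log2 fold changes of the 45 members in the 3 comparisons (edgeR; bars, 1 SE), with the same gene order in each panel and filled points for an adjusted p under 0.05. Filled points occur for 5 mitosis genes and in the panel of hypoxia with PTH against normoxia only, and the replication genes scatter around 0.

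Hypoxia against normoxia gave 0 members called, against 0.570% of all genes (0.412% higher and 0.158% lower). DESeq2 called 2 members, Cdc20 and Kif20a, against 4.28% of all genes given an adjusted p (791 genes). At an unadjusted p under 0.05 edgeR had 5 members higher and 1 lower, against 6.45% of all genes higher and 5.37% lower. The mitosis median was 0.39, with 24 of 27 above 0, and the replication median was 0.03, with 12 of 18 above 0. Over all genes the median was -0.00153 (49.7% above 0). Not overlapping and higher in hypoxia were 4 mitosis genes and the replication gene Rrm1, against 8.56% of all genes, and lower were Cdt1 and Pcna, against 8.57%.

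Hypoxia with PTH against hypoxia gave 0 members called, as no gene of 19640 was called (0.00%). DESeq2 called 1 member, Ccnb2, against 0.919% of all genes given an adjusted p (156 genes). At an unadjusted p under 0.05 edgeR had 14 members higher and 0 lower, against 4.24% of all genes higher and 5.07% lower. The mitosis median was 0.74, all 27 above 0, and the replication median was 0.09, with 11 of 18 above 0. Over all genes the median was -0.01 (47.7% above 0). The groups did not overlap, with hypoxia with PTH higher, for 17 mitosis genes and 3 replication genes, against 6.60% of all genes, and with hypoxia with PTH lower for Cdc6 alone, against 7.29%. Smallest in p was Ccnb2 (log2 fold change 0.91, SE 0.24, adjusted p = 0.426), then Ect2, Nusap1, Kif11 and Prc1, with log2 fold changes of 0.76, 0.89, 1.18 and 1.04.

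Summed over the 27 mitosis genes, expression was 137, 149 and 124 CPM in hypoxia with PTH, 96.8, 62.0 and 95.2 CPM in hypoxia and 55.1, 54.9 and 83.7 CPM in normoxia. The mean was 137 ± 12.5 CPM in hypoxia with PTH, 84.7 ± 19.6 CPM in hypoxia and 64.6 ± 16.6 CPM in normoxia (SD, n = 3 each). Hypoxia with PTH lay above every other library, and hypoxia and normoxia overlapped. The sum over the 18 replication genes was 239 ± 9.17 CPM in hypoxia with PTH, 229 ± 6.56 CPM in hypoxia and 236 ± 6.66 CPM in normoxia (SD, n = 3 each), so the groups overlapped. After each group's mean was taken out, pairs of mitosis genes correlated across the 9 libraries at a median r of 0.60 (351 pairs), pairs of replication genes at 0.09 (153 pairs) and mixed pairs at 0.04 (486 pairs). These are descriptions, since all pairs share the same libraries, depth and tissue pieces.

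**Figure D4:**
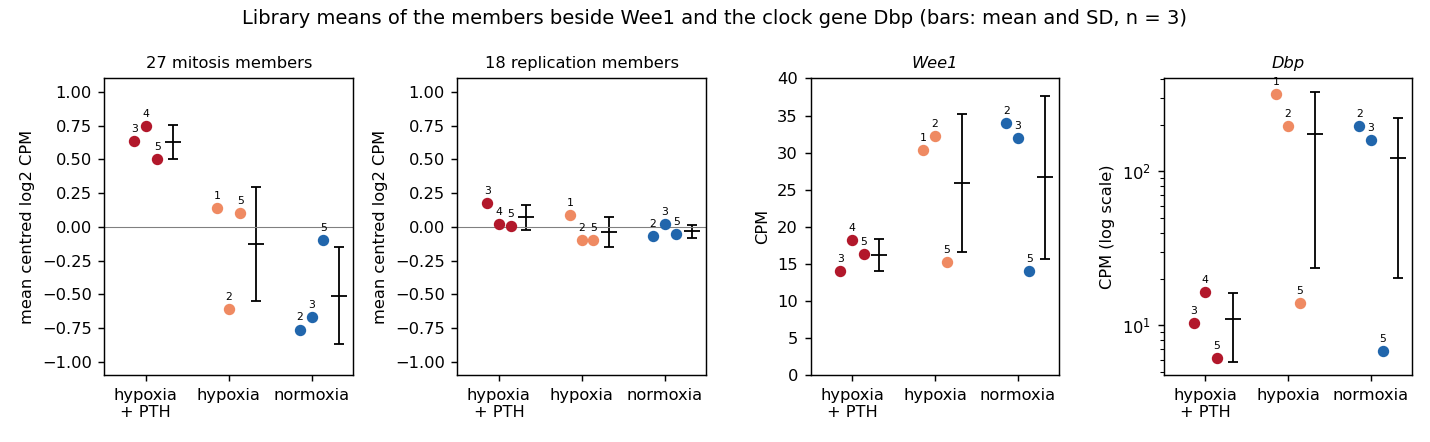
Mean centred log2 CPM of the 27 mitosis and 18 replication members, and CPM of Wee1 and of the clock gene Dbp (log axis), for each library (points, with replicate number; mean and SD, n = 3 a group). The 3 hypoxia with PTH libraries lie at or above 0.50 for mitosis and at or below 18.3 CPM for Wee1; hypoxia 5 and normoxia 5 share the low Dbp.

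Genes of the circadian clock differed between libraries. For hypoxia with PTH against normoxia 11 of 14 core clock genes lay below 0, their median was -0.83, and 0 were called. Dbp, a clock output gene, measured 10.4, 16.5 and 6.13 CPM in hypoxia with PTH, 316, 197 and 13.9 CPM in hypoxia and 197, 160 and 6.85 CPM in normoxia. All 3 PTH libraries were low, as were hypoxia 5 and normoxia 5. Within those 5 libraries the mitosis sum was 137, 149 and 124 CPM with PTH, 95.2 CPM in hypoxia 5 and 83.7 CPM in normoxia 5, and 20 of 27 mitosis genes and 4 of 18 replication genes had all 3 PTH libraries above both, against 10.8% of all genes tested. In all 9 libraries with a clock score as a covariate, 0 members were called for hypoxia with PTH against normoxia. That fit called 76 genes in all, against 341 without the covariate. A fit of the 5 libraries with low Dbp was chosen after the Dbp values were seen. It assumed that the lone hypoxia and normoxia libraries vary like the others. The mitosis median for hypoxia with PTH against normoxia was 0.65 in that subset and 0.89 with the covariate. The part of the clock in the mitosis result was not tested beyond these values. Wee1, chosen after its values were seen, encodes the kinase that holds Cdk1 inactive and is controlled by the clock in mouse liver. It was at 14, 18.3 and 16.3 CPM in hypoxia with PTH, 30.4, 32.2 and 15.3 CPM in hypoxia and 34.0, 32.0 and 14 CPM in normoxia. It was low in the same 5 libraries as Dbp and high in the other 4. Wee1 was 1 of 11 G2 checkpoint genes counted, of which 7 lay above 0 and 4 below for hypoxia with PTH against normoxia.

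Further genes of the same pathways were counted beside the members. Of 45 further kinetochore and spindle genes 40 lay above 0 when hypoxia with PTH was set against normoxia; the median was 0.78, and 2 were called higher: Spc25, a part of the Ndc80 complex (1.93, SE 0.35, adjusted p = 0.0296), and Tacc3, a spindle microtubule protein (0.70, SE 0.14, adjusted p = 0.0384). In the other comparisons the median was 0.29 for hypoxia against normoxia and 0.58 for hypoxia with PTH against hypoxia, with 0 called. Of 38 further replication genes 20 lay above 0, with a median of 0.01 and 0 called. The condensin and cohesin genes (17) had a median of 0.07, the G1 cyclins, kinases and pocket proteins (18) of 0.11, the CDK inhibitors and p53 targets (13) of 0.06, the DREAM and MuvB subunits (7) of -0.04 and the G2 checkpoint genes (11) of 0.00188, with 0 called in each.

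Promoter letters were set beside the fold changes. The 1048 tested genes with both a CHR and a CCAAT match had a median of -0.00313 in hypoxia with PTH against normoxia and 1.81% called, and the 11885 without had -0.0117 and 1.83%. Among mitosis members the 16 with both had a median of 1.06, and the 6 without that pair had 1.09.

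Markers of other cell types moved between the same groups, and their part in the mitosis result was not tested; calls given here are for hypoxia with PTH against normoxia. NK cell markers summed to 11.7 to 29.8 CPM in hypoxia with PTH, 23.9 to 30.6 CPM in hypoxia and 44.6 to 65.9 CPM in normoxia, with 2 of 6 called lower. The B cell sum was 59.1 to 107 CPM in hypoxia with PTH, 55.6 to 91.9 CPM in hypoxia and 128 to 242 CPM in normoxia, with 0 of 7 called. Alveolar macrophage markers (8, 1 called higher) summed to 814 to 919 CPM in hypoxia with PTH, 719 to 790 CPM in hypoxia and 629 to 753 CPM in normoxia. Of these 8, 6 lay above 0 by log2 fold change and 2 below. Chil3 measured 540, 575 and 612 CPM in hypoxia with PTH and 344, 414 and 319 CPM in normoxia. Car4 measured 142, 185 and 153 CPM in hypoxia with PTH and 173, 216 and 224 CPM in normoxia. Club cell markers (5, of which Cyp2f2 was called lower) summed to 21900 to 23000 CPM in hypoxia with PTH, 23800 to 33000 CPM in hypoxia and 30800 to 36800 CPM in normoxia. Aerocyte markers (6, of which Ednrb and Cyp4b1 were called lower) summed to 1460 to 1500 CPM in hypoxia with PTH, 1510 to 1660 CPM in hypoxia and 1930 to 2220 CPM in normoxia. By log2 fold change, 4 of these 6 lay below 0 and 2 above, with a median of -0.52 and a highest value of 0.75. Erythroid markers (8, 0 called) summed to 2670 to 4080 CPM in hypoxia with PTH, 2980 to 3750 CPM in hypoxia and 4570 to 6070 CPM in normoxia. Of these 8, 6 lay below 0 by log2 fold change and 2 above. In overlapping sums, 2 of 7 pericyte and smooth muscle markers, Cspg4 and Higd1b, were called higher, and 1 of 7 capillary endothelium markers, Plvap, was called lower. By log2 fold change, 4 pericyte and smooth muscle markers lay above 0 and 3 below, and 5 capillary markers lay above 0 and 2 below. Fibroblast markers (7, of which Col3a1 and Pdgfra were called higher) summed to 2070 to 2360 CPM in hypoxia with PTH, 1410 to 1990 CPM in hypoxia and 1170 to 1350 CPM in normoxia, with Dcn at -0.33 (adjusted p = 0.691) and Lum at -0.67 (adjusted p = 0.339) on the log2 scale for hypoxia with PTH against normoxia. In the remaining lists (T cell, megakaryocyte and platelet, neutrophil, interstitial macrophage, type 1 and type 2 alveolar, ciliated, mesothelial, adipocyte and others) 0 markers were called. Cardiac muscle markers summed to 50.6 to 481 CPM in hypoxia with PTH, 410 to 1530 CPM in hypoxia and 258 to 834 CPM in normoxia. With a muscle and fat score or a lymphoid score as a covariate, 0 members were called against normoxia. For hypoxia with PTH those fits called 115 and 102 genes in all, against 341 without a covariate. The mitosis median was 0.988 with the muscle and fat score and 1.18 with the lymphoid score, against 1.15 without. All 27 mitosis genes lay above 0 in both fits. The lymphoid score itself differed by group, at 0.52 to 0.90 in normoxia and at most 0.12 in the other groups. Mpo and Elane of granulocyte progenitors and Klf1 of erythroid cells were at or below 0.437 CPM in each library. In the same lists Prtn3 ran from 0.365 to 0.976 CPM over the libraries, and Ngp reached 3.01 CPM in normoxia 5. Camp reached 1.27 CPM in hypoxia 2, and Ltf was at 211 CPM in hypoxia 2 and 199 CPM in normoxia 2. Slc4a1 reached 3.14 CPM in hypoxia with PTH 4, and Alas2 ran from 23.7 to 48.5 CPM.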

How the data were processed

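Poly(A) RNA of whole lung was sequenced with a strand-marking kit, per the labels. Per the submitters' processing notes, Trimmomatic 0.39, STAR 2.7.9a and build mm10 were used, with counter, strand setting and annotation not given in the sources used here. Expected counts (11.6% of those above 0 are whole) and log2 TPM values with a floor at 1 TPM, made by the authors, form the deposited table. Of whole counts from 1 to 20, 88.9% were even, so mates seem to have been counted individually, which was not corrected. After rounding, the test was edgeR 4.0.16 under R 4.3.3 (TMM, filterByExpr with minimum count 10 and minimum total 15, robust quasi-likelihood F test) in 1 model of 9 samples with 6 residual degrees of freedom. edgeR's common coefficient of variation came to 0.204. P was adjusted by Benjamini-Hochberg over 19640 genes. DESeq2 1.42.0 and limma 3.58.1 were alternatives, with other scalings, filters, covariates, a replicate block and libraries left out.

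The members and the gene lists were chosen with earlier results of these data known. Values in every library are given for Mki67, Top2a, each called member, and in each role the member with the highest mean TPM and the one with the smallest p over the 3 groups. Exon overlaps come from GENCODE M21. The per-sample columns not used numbered 0.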

Additional observations from a re-analysis of the deposited data

How the results depend on the processing

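Over the settings tried, the mitosis median lay between 0.65 and 1.39 for hypoxia with PTH against normoxia and the replication median between -0.02 and 0.17. No value changed sign past the threshold. Members called in that comparison numbered 19 with DESeq2, 8 with limma-voom, 10 with no filter on low counts, 14 at a threshold of 0.1, 0 with the muscle and fat, clock or lymphoid score as a covariate, and 0 in the 5 libraries with Dbp under 20 CPM, a subset chosen after seeing the data, where the median of all members was 0.527. Genes called there numbered 1417 with DESeq2, 833 at 0.1, 156 with limma-trend, which used the deposited log2 TPM, 115, 76 and 102 with the muscle and fat, clock and lymphoid covariates, and 7 in the low-Dbp subset. For hypoxia with PTH against normoxia, limma-voom called 307 genes in all and no filter on low counts 451. Members called by limma-trend in that comparison numbered 5. Leaving out single libraries gave 0 to 8 members and 81 to 359 genes for this comparison. The same fits gave 0 to 0 members and 50 to 158 genes for hypoxia against normoxia. They gave 0 to 0 members and 0 to 1 genes for hypoxia with PTH against hypoxia, and 0 to 3 members over the 3 groups.

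For hypoxia against normoxia, DESeq2 called 2 members and 791 genes, no filter 1 member and 198 genes, a threshold of 0.1 gave 1 member and 324 genes, limma-trend 37 genes and the low-Dbp subset 4 genes. For hypoxia with PTH against hypoxia, DESeq2 called 1 member and 156 genes, the lymphoid covariate 2 genes, and limma-trend and the low-Dbp subset 1 gene each. Over the 3 groups, DESeq2 called 19 members, no filter 4, a threshold of 0.1 gave 6, and the 3 covariates and limma-trend 0. Genes called in all were not counted for these settings over the 3 groups. The cause of these shifts was not tested, and the subsets also held fewer samples. The 5 called values of named members lost the threshold in 59 of 105 alternatives and kept it in 46, and the 43 values not called gained it in 20 of 903.

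Replicate numbers were not treated as pairs, since the labels do not state pairs. After each group's mean was taken out, libraries of different groups with the same number correlated at -0.097 to 0.143. Those with different numbers correlated at -0.267 to 0.271. With the replicate number as a block, 2 residual degrees of freedom remained, 0 members were called in any comparison and over the 3 groups, and 17 genes were called for hypoxia with PTH against normoxia and 8 for hypoxia against normoxia. Depth limits the low genes, such as Kif2c.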
